A study of Mus musculus with 2 samples.

Results

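The 10 genes of cartilage matrix and joint lubrication followed here in single-cell transcriptomes of mouse femurs were *Prg4*, *Acan*, *Hapln1*, *Comp*, *Matn3*, *Chad*, *Cilp*, *Cilp2*, *Cytl1* and *Msmp*. They were chosen by name, and all 10 of the 10 members were found, each as 1 row among the 32285 genes of both count matrices. Male C57BL/6J mice, 7 weeks old, either received calcitriol, the active form of vitamin D, at 2.5 µg/kg into a vein daily for 3 days, with bone collected 24 h later, or were left untreated. Femurs of 6 mice were pooled per group into 1 library, the epiphyses were cut off, the marrow was flushed out and CD45-positive cells were depleted. Every comparison of calcitriol with untreated is therefore between 2 libraries, with no replicate check and no p-value. Intervals in square brackets are exact 95% intervals of counting error only.

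The untreated library held 70266983 UMIs (unique molecular identifiers, each standing for 1 captured transcript) in 6076 barcodes, and the calcitriol library 60392557 UMIs in 4562 barcodes. Haemoglobin genes took 41.2% and 10.6% of them, and 8 barcodes were shared by both libraries. The 10 members took 0.836% of the untreated and 3.08% of the calcitriol UMIs. After quality control 4436 untreated and 3693 calcitriol cells, at medians of 10990 and 12258 UMIs per cell, formed 26 clusters. The members were left out of the genes that drove this clustering and are in no marker list, so that no cluster was built or named from them.

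Hyaline cartilage holds water through aggrecan, a large proteoglycan encoded by *Acan* that is bound to hyaluronan by the link protein *Hapln1*. *Comp*, a pentameric thrombospondin-family protein, and matrilin-3 (*Matn3*) bind collagen fibrils, and chondroadherin (*Chad*), a leucine-rich repeat protein, binds both collagen and cell-surface integrins. *Cilp* and *Cilp2* are secreted proteins of the cartilage intermediate layer, *Cytl1* is a small secreted protein known from chondrocytes, and *Msmp* is a small cysteine-rich secreted protein. *Prg4* encodes lubricin, the mucin-like lubricant of joint surfaces and gliding tendons. Articular cartilage has a lubricating superficial zone, and the growth plate passes from reserve through proliferating to hypertrophic cells.

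The genes lie on different chromosomes of GRCm38 (mm10) apart from *Comp* and *Cilp2*, which are both on chromosome 8. By GENCODE vM21, *Prg4* (ENSMUSG00000006014) lies on chromosome 1 from 150449412 to 150466165, *Acan* (ENSMUSG00000030607) on chromosome 7 from 79053483 to 79115099, and *Hapln1* (ENSMUSG00000021613) on chromosome 13 from 89539796 to 89611652. *Cytl1* (ENSMUSG00000062329) lies on chromosome 5 from 37735519 to 37739820, and *Msmp* (ENSMUSG00000078719) is a 3-exon gene on chromosome 4 from 43583216 to 43584494. No member overlaps another gene on its own strand. *Prg4*, *Hapln1*, *Chad* and *Msmp* each overlap 1 gene on the opposite strand (*Tpr*, *Gm8546*, *Acsf2* and *Rgp1*). How strand was used in counting is not given in the sources used here, so the levels of these 4 genes are uncertain to that extent.

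RefSeq (GRCm38.p6) gives a start region for 8 of the 10 members. The 250 bases before the start are shown for 2 pairs of members: *Acan* and *Hapln1*, whose levels were the most alike of any 2 members over the clusters, and *Chad* and *Cytl1*, which were, like *Cilp*, higher with calcitriol in each of the 5 chondrocyte-like clusters. They lie at chr7:79052976-79053225, plus strand; chr13:89540386-89540635, plus strand; chr11:94564797-94565046, plus strand; and chr5:37735269-37735518, plus strand. Capitals mark TATAAA, the TATA box, or the SOX-type letters ACAAAG and ACAATG, on either strand.
Acan: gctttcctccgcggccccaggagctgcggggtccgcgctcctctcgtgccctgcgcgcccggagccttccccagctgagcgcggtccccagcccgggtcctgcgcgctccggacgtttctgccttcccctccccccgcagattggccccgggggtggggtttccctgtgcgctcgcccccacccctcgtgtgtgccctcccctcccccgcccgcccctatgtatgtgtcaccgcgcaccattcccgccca
Hapln1: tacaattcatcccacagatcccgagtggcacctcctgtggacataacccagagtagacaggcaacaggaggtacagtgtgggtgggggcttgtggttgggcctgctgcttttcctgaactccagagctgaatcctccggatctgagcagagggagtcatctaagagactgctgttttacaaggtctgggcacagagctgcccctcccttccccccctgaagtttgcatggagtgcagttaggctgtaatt
Chad: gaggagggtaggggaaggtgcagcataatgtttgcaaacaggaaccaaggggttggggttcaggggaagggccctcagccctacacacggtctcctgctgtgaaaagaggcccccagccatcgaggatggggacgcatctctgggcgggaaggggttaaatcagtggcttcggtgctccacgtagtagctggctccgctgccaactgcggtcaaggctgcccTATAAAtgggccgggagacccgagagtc
Cytl1: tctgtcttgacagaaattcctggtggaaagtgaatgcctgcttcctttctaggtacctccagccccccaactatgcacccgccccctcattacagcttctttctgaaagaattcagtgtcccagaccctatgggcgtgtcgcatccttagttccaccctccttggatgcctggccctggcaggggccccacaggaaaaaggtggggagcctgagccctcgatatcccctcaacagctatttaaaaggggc
TATAAA was found once among the 8 members with a sequence, 28 to 23 bases before the start of *Chad*, and in 12.4% of 32851 start regions of that length. The SOX-type letters were in none of the 8 windows and in 25.2% of all. Direct repeats of the vitamin D response element type, AGGTCA or GGTTCA repeated with 3 bases between, were searched for as well, in these exact letters and on both strands. Neither was in any of the 8 windows, and each was in 0.00609% of all start regions. The window of *Acan* had 74.4% G and C and that of *Hapln1* 54.4%, against a median of 52.4% over all start regions.

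Of the clusters, 5 with 516 untreated and 1203 calcitriol cells were chondrocyte-like. Cluster 1 (190 untreated and 545 calcitriol cells) was superficial zone-like, with *Erg*, *Creb5*, *Vit* and *Clu* raised, although *Col2a1* was not among its markers. *Abi3bp*, also on the superficial list, was not among them, while *Sfrp5* and *Apoe* of the reserve list were. Cluster 12 (74 and 186 cells) was reserve zone-like with *Sfrp5*, *Spon1*, *Ucma* and *Apoe*. *Pthlh*, also on the reserve list, was not among its markers, while *Clu* of the superficial and *Fgfr3* of the proliferative list were. Cluster 15 (85 and 151 cells) was proliferative zone-like by *Epyc*, *Matn1*, *C1qtnf3* and *Fgfr3*, while the cell cycle markers *Mki67* and *Top2a* were not among its markers. *Ucma* and *Apoe* of the reserve list were among them. *Epyc*, *Matn1* and *Fgfr3* were markers of cluster 18 as well, so of these genes only *C1qtnf3* set cluster 15 apart from it. Cluster 18 (73 and 114 cells), led by *Col10a1* and with *Ihh*, *Pth1r* and *Mef2c* among its markers, was prehypertrophic and hypertrophic zone-like, hereafter hypertrophic zone-like for short. *Mmp13*, also on that list, was not among its markers, while *Ucma* of the reserve list was. Cluster 10 (94 and 207 cells) was given no zone. *Tnfrsf11b* and *Ibsp* led it, and the 2 listed markers among its top 10 genes, *Ibsp* and *Alpl*, are on both the hypertrophic and the osteoblast lists. Its chondrocyte-like class rests on markers outside the top 10, such as *Col2a1*, *Sox9*, *Snorc* and *Mia*. Of the others, 1 was synovial lining-like (25 and 95 cells), 3 were tendon-like (373 and 481 cells) and 1 was fibroblast-like (436 and 662 cells). Levels are given as CPM, UMIs of a gene per 1000000 UMIs of all cells in the set. Each transcript is counted once at its 3′ end, whatever its length.

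Of the 10 members, 8 were highest in a chondrocyte-like cluster, the exceptions being *Prg4*, highest in the synovial lining-like cluster, and *Cilp2*, highest in tendon-like cluster 8. The share of all genes highest in such a cluster is not given, so this count only describes the members. *Cilp* and *Cilp2* changed place between libraries, with the untreated maximum in tendon-like cluster 8 and the calcitriol maximum in the superficial cells. *Matn3* was the most restricted, with 98.9% of its UMIs in chondrocyte-like cells, followed by *Hapln1* and *Cytl1* with 97.0% each, *Acan* with 93.9%, *Msmp* with 92.6% and *Chad* with 88.5%. *Comp* had 71.7% of its UMIs in chondrocyte-like and 18.6% in tendon-like cells. *Cilp* had 59.2% and 29.4% there, and *Cilp2* 55.7% and 39.9%. *Prg4* was divided between chondrocyte-like cells with 49.4% and the lining-like cells with 39.9% of its UMIs.

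**Figure D1:**
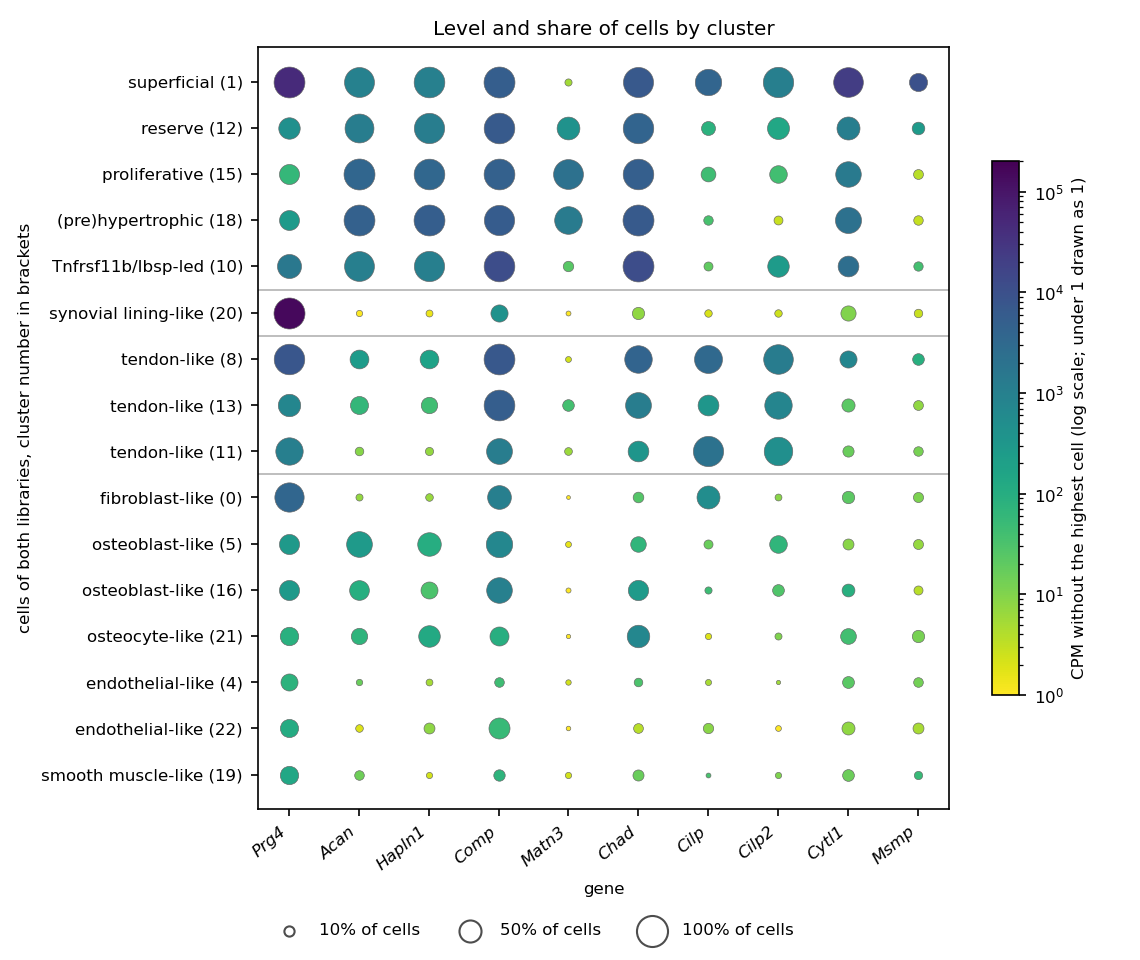
Level (colour, CPM on a log scale without the single highest cell) and share of cells with a UMI (dot size) of the 10 genes in 16 clusters, cells of both libraries together. *Prg4* is darkest in the synovial lining-like and superficial rows, *Acan*, *Hapln1* and *Matn3* in the proliferative and hypertrophic rows, and *Cilp* and *Cilp2* in the superficial and tendon-like rows.

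Lubricin separated the joint surfaces from deeper cartilage. *Prg4* was at 154851 CPM [154394, 155310] in the synovial lining-like cells and at 47008 CPM [46881, 47135] in the superficial zone-like cells. It followed at 8669 CPM in tendon-like cluster 8 and at 3744 CPM in the fibroblast-like cells, and these intervals did not overlap. The lining-like cells held *Prg4* almost alone: *Comp* was at 536 CPM there, and *Acan*, *Hapln1*, *Matn3* and *Chad* gave 27, 23, 2 and 28 UMIs against 439527 of *Prg4*. In deeper cartilage *Prg4* was far lower. It was at 15.2 CPM in the proliferative and 3.09 CPM in the hypertrophic zone-like cells of the untreated library, where barcodes with under 200 genes had 12.8 CPM. These sets differ in depth, at medians of 27060 and 39397 UMIs against 8888 in the barcodes, so their CPM does not compare stray UMIs per droplet. A *Prg4* UMI was in 23.5% and 12.3% of these cells and in 7.14% of the barcodes. The untreated reserve zone-like cells were at 194 CPM.

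The genes of the aggrecan complex had another order, highest in the hypertrophic zone-like cells of both libraries. *Acan* was at 4818 CPM [4767, 4869] in hypertrophic, 3783 CPM in proliferative, 1232 CPM in reserve and 972 CPM [954, 990] in superficial zone-like cells. *Hapln1* followed it with 5640, 3636, 1245 and 1022 CPM in the same 4 zones. These levels pool the libraries, and the lower end of the order for *Acan* differed between them. Reserve and superficial zone-like cells were at 2336 and 1242 CPM untreated and at 775 and 878 CPM with calcitriol. Both were found in nearly all superficial cells as well, *Acan* in 97.9% of the untreated and 91.2% of the calcitriol cells. Outside cartilage tendon-like cluster 8 came next, with *Acan* at 294 CPM and *Hapln1* at 193 CPM. The osteoblast-like cells held *Acan* at 218 CPM and *Hapln1* at 79.7 CPM, and the osteocyte-like cells held them at 84.4 and 147 CPM. Over the 26 clusters, *Acan* and *Hapln1* correlated at a Pearson r of 0.98 on log2(CPM + 10). This r is a description over clusters that share 2 libraries.

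*Matn3*, a growth plate matrix gene, had a steeper order. It was at 2191 CPM [2154, 2227] in proliferative, 1334 CPM in hypertrophic and 437 CPM in reserve zone-like cells. It was at 8.50 CPM [6.87, 10.4] in the superficial cells, 258-fold under its highest level. *Comp* differed far less between chondrocyte-like clusters, from 11637 CPM in cluster 10 to 4779 CPM in the proliferative zone-like cells, with the superficial cells at 5498 CPM. Tendon-like clusters 8 and 13 stood among them at 7333 and 5513 CPM. The pooled intervals of *Comp* in tendon-like cluster 13 and in the superficial cells overlapped, and the order of these 2 clusters was opposite in the libraries. The superficial cells were at 7260 against 5049 CPM in cluster 13 untreated, and at 4886 against 5876 CPM with calcitriol. *Chad* was likewise highest in cluster 10 at 11588 CPM and lay between 4192 and 7095 CPM in the 4 zones, both libraries pooled. *Chad* was also found in 52.2% of the osteocyte-like cells, at 841 CPM.

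*Cilp* and *Cilp2* were highest in superficial and tendon-like clusters. *Cilp* was at 3992 CPM [3955, 4029] in the superficial cells, 3300 CPM in tendon-like cluster 8 and 2044 CPM in tendon-like cluster 11. The other chondrocyte-like clusters were at 122 CPM or lower in either library. The fibroblast-like cells, at 533 CPM, were above tendon-like cluster 13, at 383 CPM. This order was 545 against 156 CPM untreated but 526 against 561 CPM with calcitriol. *Cilp2* was at 1265 CPM [1234, 1297] in tendon-like cluster 8, 1064 CPM [1045, 1083] in the superficial cells and 779 CPM in tendon-like cluster 13. In tendon-like cluster 11, which *Chodl* and *Mstn* led, *Cilp* was found in 95.7% of the untreated and 94.4% of the calcitriol cells, while *Acan* was at 9.68 and 10.4 CPM. *Cytl1* marked the superficial cells at 22544 CPM [22456, 22632], 7.75-fold over cluster 10, its next cluster.

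*Msmp* behaved unlike the other members abundant in the superficial cells, in that a small number of cells held nearly all of it. *Matn3* was also held by few of these cells, but with only 69 and 26 UMIs. In the superficial cells *Msmp* was at 11852 CPM, yet it was found in only 24.7% of the untreated and 36.5% of the calcitriol cells. Its median over cells was 0 in both. A single untreated cell held 7381 of 13306 UMIs, and 4 of 545 calcitriol cells held 50% or more of 119203 UMIs, the highest of them 23614. The highest 10% of the cells held 98.4% and 98.3% of the *Msmp* UMIs, against 42.0% and 43.6% for *Prg4*, 39.3% and 32.3% for *Cytl1* and 33.6% and 40.4% for *Acan*. Cells with at least 100 *Msmp* UMIs numbered 11 of 190 and 57 of 545. With *Msmp* itself left out of their totals, those cells had *Cytl1* at medians of 27766 CPM (untreated) and 26293 CPM (calcitriol). The cells without *Msmp* had medians of 8737 and 23866 CPM, so the gap was wide in the untreated library and small in the other. *Acan* was lower in the *Msmp*-rich cells in both libraries, at medians of 666 against 1099 CPM and 212 against 706 CPM.

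**Figure D2:**
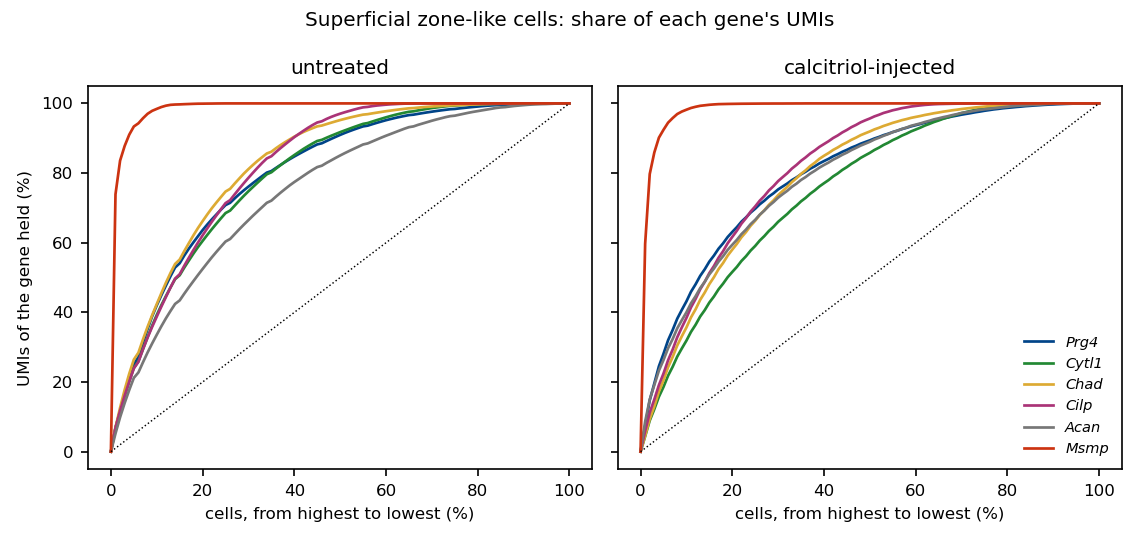
Share of each gene's UMIs (vertical, %) held by the superficial zone-like cells ordered from highest to lowest (horizontal, %), untreated on the left and calcitriol-injected on the right; the dotted line stands for equal cells. The *Msmp* curve reaches 98.4% and 98.3% within 10% of the cells, while the other 5 genes rise gradually.

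High *Msmp* levels outside the superficial cells rested largely on single cells. The lymphatic vessel gene-led endothelial-like cluster 22 had it at 4738 CPM, but 1 cell held 7799 of 7807 UMIs, and without that cell the level was 4.97 CPM. That cell also had 182 UMIs of *Cilp* and was scored as a doublet, a droplet with 2 cells. In smooth muscle-like cells 1 cell held 947 of 1019 UMIs, and in untreated reserve zone-like cells 1 cell held 1574 of 1587. In calcitriol tendon-like cells *Msmp* was at 179 CPM and at 81.9 CPM without the highest cell, above the 18.6 CPM of barcodes with under 200 genes. Median depths were 11370 UMIs in these cells and 5149.5 in the barcodes, so their CPM does not compare stray UMIs per droplet. Another cell of cluster 22, also scored as a doublet, held 4563 of its 4746 *Prg4* UMIs.

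Within the superficial cells the abundant members did not rise and fall as one. Over 190 untreated and 545 calcitriol cells, Spearman's rho between cell CPM values was 0.33 and 0.32 for *Prg4* with *Cytl1*, but -0.25 and -0.46 for *Prg4* with *Comp* and -0.18 and -0.28 for *Prg4* with *Chad*. *Acan* and *Hapln1* had rho of 0.57 and 0.44, and *Cilp* and *Cilp2* of 0.51 and 0.45. The cells share libraries and a fixed total, and these values are descriptions. *Prg4* ranged from 3000 CPM at the 10th to 135929 CPM at the 90th percentile of untreated cells, with a median of 27594 CPM, and from 3656 to 124941 CPM with a median of 27318 CPM in calcitriol cells.

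Genes outside the list with the most similar profile over the 26 clusters, among 9765 genes with at least 500 UMIs, were named by Pearson r. *Prg4* was nearest to *Barx1* (0.862), *Htra4* and *Dnmbp*. *Acan* was nearest to *Impa2* (0.949), *Col2a1* (0.946), the main cartilage collagen, and *Il11*. *Hapln1* was nearest to *Il11* (0.957), *Stk26* and *Col2a1* (0.951). *Matn3* was nearest to *Phlda2* (0.970), *Serpina1a* and *Syt8*. *Comp* was nearest to *Ccdc80* (0.935), *Tmem45a* and *Loxl3*, and *Chad* to *Nt5e* (0.932), *Ecrg4* and *Kcnma1*. *Cilp* was nearest to *A430018G15Rik* (0.868), *Boc* and *P4htm*. *Cilp2* was nearest to tendon-rich genes, *Fmod* (0.888), *Angptl7* and *Col8a2*. *Cytl1* was nearest to *Rab11fip4* (0.904), *Baiap2l1* and *Proser2*, and *Msmp* to *Gldc* (0.744), *Mall* and *Dlk1*.

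Calcitriol was then compared with untreated, taking 2-fold with at least 50 UMIs in the 2 libraries as the limit for calling a difference. In all chondrocyte-like cells, 3 of 10 members (*Cilp*, *Cytl1* and *Msmp*) were at least 2-fold higher in the calcitriol library, where 3.40% of 11722 genes were, and 1 (*Matn3*) was at least 2-fold lower, where 4.20% were. The median log2 ratio was 0.45 over the members and -0.06 over all genes. Superficial cells made up 36.8% of the untreated and 45.3% of the calcitriol chondrocyte-like cells, so sums over the class also carry this makeup. Within the superficial cells alone, *Msmp* was the 1 member at least 2-fold higher, where 3.43% of 8727 genes were, and *Matn3* the 1 at least 2-fold lower, where 3.52% were. The members' median log2 ratio was then 0.05, against -0.06 over all genes.

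**Figure D3:**
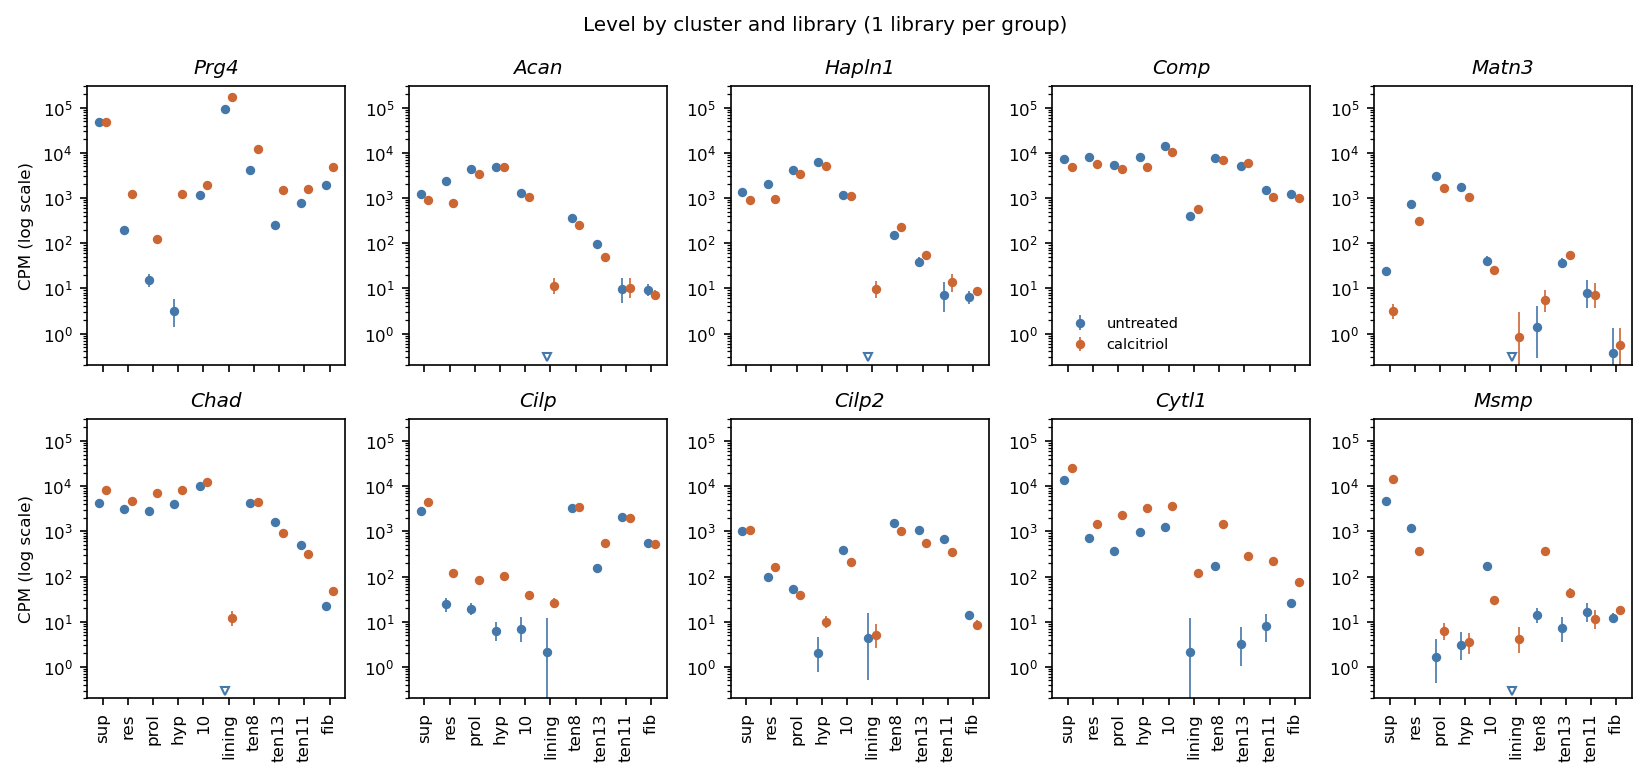
Level of each gene (CPM, log scale) in the 5 chondrocyte-like clusters (superficial, reserve, proliferative, hypertrophic and cluster 10), the synovial lining-like, the 3 tendon-like and the fibroblast-like cells, untreated in blue and calcitriol in orange. Points are sums over the cells of 1 library, bars exact 95% counting intervals, and open triangles mark a count of 0. *Cytl1* lies higher in orange in all 10 sets.

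*Cytl1*, *Chad* and *Cilp* were higher in the calcitriol library in 5 of 5 chondrocyte-like clusters. All clusters come from the same libraries, so counts of clusters with the same direction are descriptions, here and below. The share of all genes with the same direction in every cluster is not given. *Cytl1* was at 13461 CPM untreated and 25697 CPM with calcitriol in the superficial cells, a log2 ratio of 0.93 [0.92, 0.95]. In the reserve, proliferative and hypertrophic zone-like cells the log2 ratio of *Cytl1* was 1.04, 2.62 and 1.78. Median cells lay well under the summed levels. The median cell was at 0 and 54.7 CPM in reserve, 22.5 and 171 CPM in proliferative and 28.2 and 890 CPM in hypertrophic zone-like cells. Barcodes with under 200 genes had summed levels, not medians, of 4.27 and 45.1 CPM. A *Cytl1* UMI was in 48.6% and 57.0% of reserve, 52.9% and 75.5% of proliferative and 52.1% and 81.6% of hypertrophic zone-like cells. The shares were 2.98% and 18.1% in those barcodes, which were shallower. The median superficial cell had 9197 CPM of *Cytl1* untreated and 23677 CPM with calcitriol, and 86.8% and 93.0% of the cells had a UMI. *Chad* was at 4195 and 8102 CPM in the superficial cells, a log2 ratio of 0.95 [0.92, 0.98], and its log2 ratios in the other 4 clusters lay between 0.25 and 1.29. The level of *Chad* in the median proliferative zone-like cell was 2294 CPM untreated and 5875 CPM with calcitriol.

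Other members leaned the other way. *Matn3*, *Hapln1* and *Comp* were lower with calcitriol in 5 of 5 chondrocyte-like clusters, and *Acan* in 4 of 5. *Matn3* was at 2995 and 1691 CPM in proliferative and at 1791 and 1024 CPM in hypertrophic zone-like cells, log2 ratios of -0.82 [-0.87, -0.78] and -0.81 [-0.86, -0.75]. Its log2 ratio of -2.93 in the superficial cells rests on 69 and 26 UMIs, of which 1 untreated cell held 34, and the call was lost with 20 components or with cells thinned to 2000 UMIs. *Comp* had log2 ratios between -0.74 and -0.26, and no cluster reached 2-fold. *Acan* and *Hapln1* differed most in the reserve zone-like cells, at 2336 against 775 CPM (log2 ratio -1.59 [-1.67, -1.52]) and 1988 against 938 CPM (-1.08 [-1.16, -1.01]). In the hypertrophic zone-like cells *Acan* was at 4784 and 4841 CPM, a log2 ratio of 0.02 [-0.01, 0.05].

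**Figure D4:**
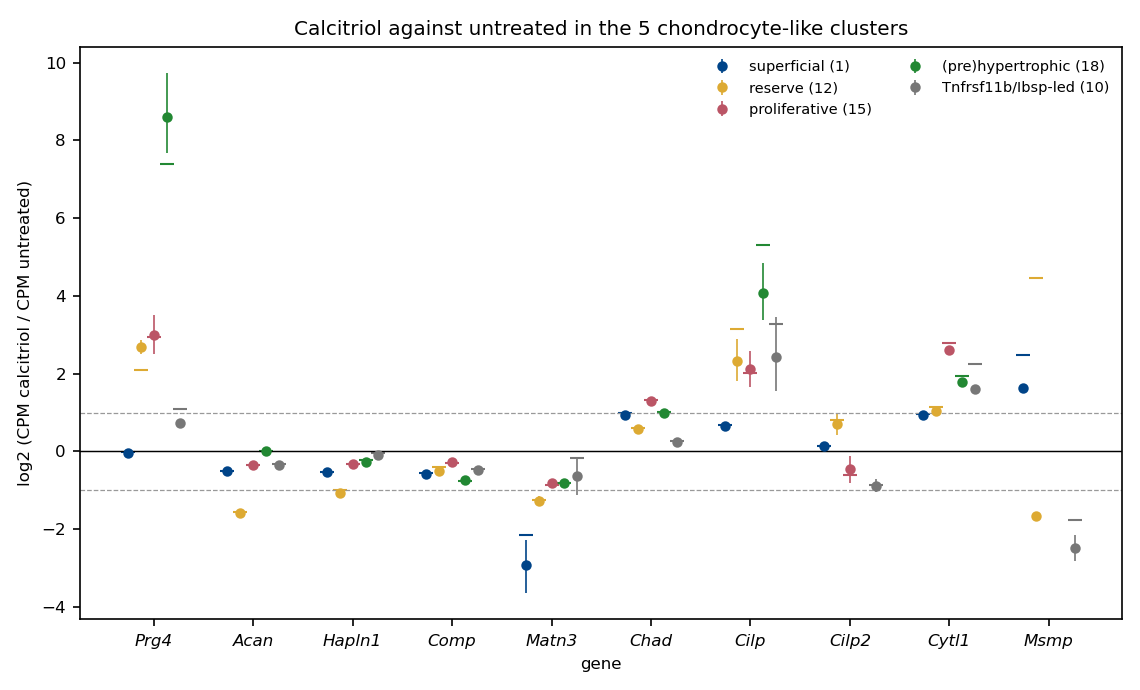
Log2 ratio of calcitriol to untreated CPM (vertical) of each gene in the 5 chondrocyte-like clusters, for genes with at least 50 UMIs; bars are exact 95% counting intervals, short dashes the ratio without the highest cell of each library, and dashed lines mark 2-fold. *Cytl1*, *Chad* and *Cilp* lie above 0 in all 5 clusters and *Matn3*, *Hapln1* and *Comp* below it.

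*Prg4* did not follow one pattern. In the superficial cells it was at 47697 CPM untreated and 46768 CPM with calcitriol, a log2 ratio of -0.03 [-0.04, -0.02], and the medians over cells were nearly equal. In the synovial lining-like cells it was at 93692 and 166995 CPM, a log2 ratio of 0.83 [0.82, 0.85] between 25 and 95 cells, with medians of 77476 and 156182 CPM. In the growth plate zones *Prg4* was higher with calcitriol, but unevenly over cells. The 122 CPM of the proliferative zone-like cells stood beside 101 CPM in calcitriol barcodes with under 200 genes. Their median depths were 26802 and 5149.5 UMIs, and a *Prg4* UMI was in 51.0% of the cells and 31.0% of the barcodes. In the calcitriol hypertrophic zone-like cells, at 1204 CPM, 1 cell held 3226 of 5167 UMIs, and the level was 466 CPM without it, with a median cell at 20.7 CPM and the 90th percentile at 108 CPM. In the calcitriol reserve zone-like cells, at 1246 CPM, 1 cell held 2230 of 4099 UMIs, and the level was 575 CPM without it, with a median cell at 50.3 CPM. Without the highest cell of each library the log2 ratios of *Prg4* stayed past 2-fold, at 7.38 in hypertrophic and 2.10 in reserve zone-like cells. The untreated hypertrophic zone-like cells had only 9 *Prg4* UMIs, at 3.09 CPM, beside 12.8 CPM in untreated barcodes with under 200 genes. The 101 CPM of such calcitriol barcodes is a summed level and cannot be set against a median cell. A *Prg4* UMI was in 58.8% of the hypertrophic and 57.0% of the reserve zone-like calcitriol cells, against 31.0% of these barcodes. Depths differed too, at medians of 39376 and 16311 UMIs in the 2 zones against 5149.5 in the barcodes. The part of stray RNA in these ratios was not tested.

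*Cilp* was at 2801 and 4406 CPM in the superficial cells, a log2 ratio of 0.65 [0.62, 0.69], and *Cilp2* at 995 and 1088 CPM, 0.13 [0.07, 0.19]. In the other chondrocyte-like clusters, where *Cilp* was at 122 CPM or lower in either library, its log2 ratios lay between 2.11 and 4.07. These ratios rest on 11 to 47 untreated UMIs and 129 to 446 calcitriol UMIs per cluster. A *Cilp* UMI was in 3.19% to 20.0% of the untreated and 9.66% to 24.2% of the calcitriol cells. Barcodes with under 200 genes, which were shallower, had *Cilp* at 1.54 and 6.70 CPM. The part of stray RNA in these ratios was not tested. The higher class-level log2 ratio of *Cilp*, 1.15 [1.12, 1.19], was 0.97 as a mean of the cells' own CPM. *Msmp* had a log2 ratio of 1.64 [1.61, 1.66] in the superficial cells and 2.48 without the highest cell of each library. In cluster 10 and the reserve zone-like cells the *Msmp* ratios pointed down, at -2.48 and -1.66, and the latter was 4.45 once the highest cell of each library was left out.

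In the synovial lining-like cells 4 members had at least 50 UMIs, and 2 (*Cilp* and *Cytl1*) were at least 2-fold higher with calcitriol, where 3.78% of 5292 genes were. Single calcitriol cells held 58 of 63 UMIs of *Cilp* and 260 of 288 of *Cytl1*. With the highest cell of each library left out both calls were lost, at log2 ratios of -1.65 for *Cilp* and 0.84 for *Cytl1*, and *Comp* passed 2-fold instead at 1.60. Without doublets no member was called. None of the 4 was at least 2-fold lower, where 6.58% were. In the tendon-like cells 3 of 10 members (*Prg4*, *Cytl1* and *Msmp*) were at least 2-fold higher, where 3.04% of 9563 genes were, and none was at least 2-fold lower, where 4.14% were. *Prg4* was at 2082 and 6228 CPM, a log2 ratio of 1.58 [1.55, 1.61], and was higher in 3 of 3 tendon-like clusters. *Cytl1* was at 78.7 and 795 CPM and was found in 9.65% and 28.9% of the tendon-like cells, with a median of 0 in both. Its log2 ratio of 3.34 was 1.27, and that of *Msmp* of 3.83 was 1.68, when clusters past any 1 of the quality limits were left out. *Cilp2* was lower in 3 of 3 tendon-like clusters, with log2 ratios from -0.95 to -0.59, while *Comp* and *Chad* were at log2 ratios of -0.05 and -0.10 over the class.

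In the fibroblast-like cells 3 of 9 members (*Prg4*, *Chad* and *Cytl1*) were at least 2-fold higher, where 2.95% of 10124 genes were, and none was at least 2-fold lower, where 3.06% were. *Prg4* was at 1905 and 4862 CPM there, a log2 ratio of 1.35 [1.32, 1.38], and was found in 81.7% and 93.8% of the cells. *Chad* was at 22.4 and 46.6 CPM, against 3.58 and 28.0 CPM in barcodes with under 200 genes. *Cytl1* was at 25.8 and 76.6 CPM, against 4.27 and 45.1 CPM in those barcodes. Median depths were 10418 and 11350 UMIs in the fibroblast-like cells, against 8888 and 5149.5 in the barcodes. Without doublets the log2 ratios of *Chad* and *Cytl1* turned from 1.06 and 1.57 to -0.56 and -0.49. The part of stray RNA in the ratios of the tendon-like and fibroblast-like cells was not tested.

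Of 36 further cartilage genes (fibrillar collagens and their partners, other matrilins and link proteins, hyaluronan and chondroitin sulphate enzymes, SOX factors and thrombospondins), 34 had at least 50 UMIs in chondrocyte-like cells. Of these, 1 (*Thbs1*, a thrombospondin) was at least 2-fold higher with calcitriol, at 699 and 1994 CPM, and 3 (*Col10a1*, *Matn1* and *Epyc*) were at least 2-fold lower, with a median log2 ratio of -0.52 over the 34. Of all genes, 3.40% were higher and 4.20% lower, with a median of -0.06. *Matn1* was at 133 and 50.9 CPM and *Epyc* at 180 and 84.9 CPM, while *Sox9* had the next highest log2 ratio, 0.41 [0.38, 0.43]. In the superficial cells 3 of 33 were at least 2-fold higher and 7 at least 2-fold lower, from *Vcan* at 81.9 and 28.9 CPM and *Scrg1* at 627 and 227 CPM to *Col10a1* at 52.4 and 200 CPM and *Matn1*, which had 2 and 55 UMIs. Of all genes in the superficial cells, 3.43% were higher and 3.52% lower, with a median log2 ratio of -0.06 against -0.52 over the 33. Over all chondrocyte-like cells *Col10a1* was at 3908 and 1842 CPM. The hypertrophic zone-like cluster, which *Col10a1* led, made up 14.1% of the untreated and 9.48% of the calcitriol chondrocyte-like cells. The proliferative zone-like cluster made up 16.5% and 12.6%. Sums of the further genes over the class therefore also carry this makeup, and their levels within these clusters are not given. For the further genes, here and in the other sets, values without the highest cell or without doublets are not given. The part of stray RNA in their ratios was not tested. In the tendon-like cells 2 of 30 were higher, among them *Thbs1* at 448 and 1319 CPM and *Sox5* at 19.0 and 39.3 CPM, and 4 lower, among them *Vcan* at 437 and 123 CPM and *Scrg1* at 33.3 and 8.19 CPM, where 3.04% and 4.14% of all genes were. In the lining-like cells none of 15 was higher and 3 were lower, where 3.78% and 6.58% of all genes were. *Thbs4* was at 768 and 31.2 CPM there and *Thbs1* at 272 and 84.0 CPM. These levels rest on 361 and 74 UMIs of *Thbs4* and 128 and 199 of *Thbs1*, in 25 untreated and 95 calcitriol cells. In the fibroblast-like cells 1 of 23 was higher, *Col10a1* with 10 and 43 UMIs, and 1 was lower, *Col2a1* at 86.0 and 28.0 CPM, where 2.95% and 3.06% of all genes were.

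Erythroid-like and endothelial-like cells, which should lack these genes, served to gauge the stray RNA of each library. *Prg4* was found in 170 of 2308 untreated erythroid-like cells (7.37% [6.33, 8.51]) and in 146 of 434 calcitriol ones (33.6% [29.2, 38.3]), at median depths of 10432 and 9865 UMIs. Thinned to 2000 UMIs per cell, with 98 and 34 shallower cells left out, the shares were 1.86% [1.33, 2.51] and 9.0% [6.38, 12.2]. Endothelial-like cells had *Prg4* in 17.6% and 41.2% of cells at median depths of 6959 and 6629 UMIs, and barcodes with under 200 genes in 7.14% and 31.0% at 8888 and 5149.5 UMIs. With the cells of more than 10 UMIs set aside, the *Prg4* level in erythroid-like cells was 7.58 and 45.9 CPM. The calcitriol library had the higher *Prg4* share in each of these 3 sets, and in the library as a whole *Prg4* was at 2953 and 14836 CPM.

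If stray UMIs were an even draw from all UMIs of a library, the members would keep the ratios to *Prg4* of the whole library. Whether they are such a draw was not tested. In calcitriol erythroid-like cells without the cells of more than 10 UMIs, these ratios were within 1.25 to 1.95 times those of the library for 8 of the 9 other members. *Matn3*, with 15 UMIs, was at 5.80 times, and 8 of its UMIs were in 1 cell that was scored as a doublet. In the untreated library 8 of the 9 ratios were within 1.44 to 2.11 times. *Msmp* was the exception there. It gave 343 UMIs in 168 erythroid-like cells, none of which had more than 10. *Prg4* gave 1839 UMIs in this set, and 192 once its 2 cells of more than 10 were left out. The library ratio was taken over all barcodes, 1 of which held 43.6% of the untreated *Msmp* UMIs. With the 192 UMIs of *Prg4*, the *Msmp* ratio was 21.9 times that of the library, and the factor was 12.2 in barcodes with under 200 genes. In the calcitriol library these factors were 1.65 and 1.38. All factors in erythroid-like cells of both libraries lay above 1, and the reason was not tested.

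**Figure D5:**
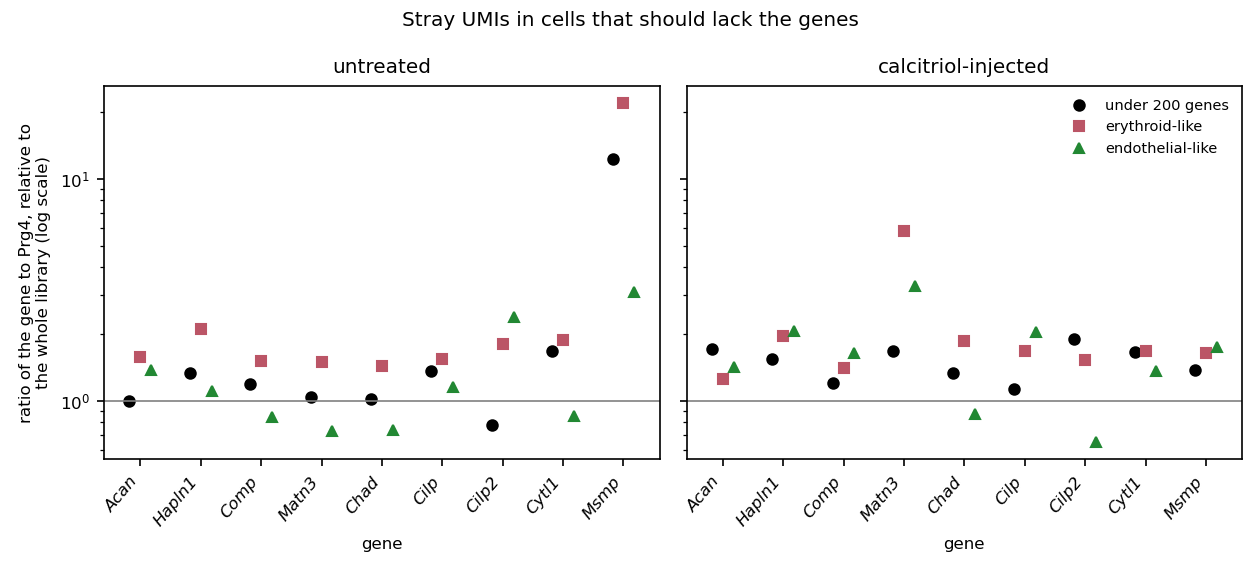
Ratio of each gene's UMIs to those of *Prg4* in erythroid-like cells, endothelial-like cells and barcodes with under 200 genes. It is divided by the same ratio in the whole library (log scale). Cells of more than 10 UMIs of a gene were left out for that gene, but not from the whole library. A value of 1 means the same ratio as the library. *Msmp* in the untreated library stands at 21.9, 3.09 and 12.2, while most other points lie between 0.652 and 2.39.

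The untreated *Msmp* UMIs were also clumped, and the reason was not tested. Of the 168 erythroid-like cells with a UMI, 74 (44.0%) had 2 or more, up to 9, a mean of 2.04, whereas of 41 such calcitriol cells 4 had 2 or more, a mean of 1.10. Over the 7 untreated erythroid-like clusters *Msmp* ranged from 8.80 to 18.1 CPM. In the whole untreated library *Msmp* was found in 437 barcodes, and the highest 1% of barcodes held 96.3% of its UMIs.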

How the data were processed

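Cells of pooled femurs, 1 library per group, were profiled by 10x 3′ single-cell RNA sequencing. According to the study's methods, the authors mapped the reads to mm10 with Cell Ranger 4.0.0 and used Seurat 3.2.2. The deposited values are raw UMI counts per gene and barcode. Barcodes with at least 200 genes were clustered with Seurat 5.3.0 after the study's scheme: clusters past all 3 limits (mitochondrial share above 10%, under 1000 genes, under 2000 UMIs) were left out, then anchors, 30 components and resolution 0.8 followed, with the members removed from the 2000 variable genes. A cluster took the class with the most markers (at least 3; in 10% of cells, 50 UMIs, 2-fold), and this rule was set after markers were seen. The methods do not give the clustering resolution. Sums, CPM (UMIs per 1000000 of the set), exact Poisson and Clopper-Pearson intervals and exact conditional intervals of ratios were computed in Python 3.11.15 with scipy 1.17.1. Intervals cover counting error only, and a count of 0 was set to 3 counts in a ratio. Doublets were scored against simulated pairs and kept (3.71% and 3.14% scored). The scripts were tested on simulated data. The members and lists were chosen with earlier results of these data known. Genes with the most similar profile were the 3 with the highest Pearson r of log2(CPM + 10). The further cartilage list names the 2 largest and 2 smallest ratios per class. Alternatives covered clustering, doublets, totals, cell means, depth and limits for a call, and leaving out the highest cell was added after seeing the data. No test between the groups was possible with 1 library each. Start regions were searched for 4 motif types, all reported.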

Additional observations from a re-analysis of the deposited data

Results flagged for a closer look

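Signal of the members lay outside the cells analysed, in barcodes with under 200 genes that the quality control removes. *Prg4* was at 12.8 CPM in the 1443 such barcodes of the untreated library and at 101 CPM in the 642 of the calcitriol library. *Msmp* was at 11.1 CPM and 18.6 CPM in the same barcodes. All 4 values are above the limit that a count of 0 allows, and they stand beside whole-library levels of 2953 and 14836 CPM for *Prg4* and 241 and 2154 CPM for *Msmp*.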

How the results depend on the processing

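The number of members highest in a chondrocyte-like cluster (8) lay between 7 and 9 under the alternatives. In chondrocyte-like cells *Matn3*, *Cytl1* and *Msmp* kept their direction past 2-fold in 10 of 10 alternatives and *Cilp* in 8 of 10, and with 1.5-fold for a call 2 members were lower there. No alternative held the makeup of this class fixed. Within its 5 clusters *Cytl1* was at least 2-fold higher in 4, but not in the superficial cells (log2 ratio 0.93). *Matn3* was at least 2-fold lower in 2, but not in proliferative or hypertrophic zone-like cells (-0.82 and -0.81). Of 3 clusters with at least 50 *Msmp* UMIs, 1 was at least 2-fold higher and 2 were at least 2-fold lower. In superficial cells the number at least 2-fold higher was 2 at resolution 0.5 or with clusters past any limit left out, 3 with the mean of the cells' own CPM or thinned cells, and 4 at 1.5-fold; the number lower was 0 with 20 components or thinned cells. In lining-like cells the number higher was 0 with all variable genes, without doublets or thinned, and 1 without the highest cells, where *Cilp* and *Cytl1* were no longer called and *Comp* was. In fibroblast-like cells 1 was lower with 20 components, with the mean of cells, at 1.5-fold and without doublets. In the last setting 1 was higher, and the log2 ratios of *Chad* and *Cytl1* turned to -0.56 and -0.49. In tendon-like cells 1 was lower at 1.5-fold. The shares of all genes called under these alternatives are not given, so these counts only describe the members. The *Prg4* share in erythroid-like cells moved to 1.86% and 9.0% thinned, to 0.823% and 8.53% with at least 2 UMIs, and to 38.8% in the calcitriol library with clusters past any limit left out. The causes were not tested. No paired analysis was possible because each group is 1 library. With 25 untreated lining-like cells, a count of 0 there allows up to 6.38 CPM.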
